A study of Mus musculus with 16 samples.

Results

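The Hox genes and a group of other developmental transcription factors were followed in epididymal white fat (eWAT) and inguinal white fat (iWAT) of mice. The group was taken from the deposited table by gene symbol, as Hox genes of the a, b, c and d clusters and genes of the Tbx, Irx, sine oculis, Nr2f, Gata, Pitx and Meis families with Shox2 and En1. Symbols of 50 of the 14023 genes listed matched, and the 48 with at least 1 FPKM (fragments scaled to transcript length and library size) in at least 2 libraries are described here. They are 27 Hox genes, 7 Tbx genes, 3 Irx genes, 3 Gata genes, 2 sine oculis genes (Six5 among them), 2 Nr2f genes, 2 Meis genes, Shox2 and En1, with no Pitx gene among them. Tbx5 and Six4 reached 1 FPKM in 1 library each and were not tested. Of the 48 genes, 35 reached 1 FPKM in at least 2 libraries of both depots and 11 did so in iWAT alone, so the filter itself admitted several genes only because they were high in iWAT.

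The mice were homozygous for K107R in PPARg, the nuclear receptor that drives fat cell differentiation, or carried wild-type PPARg (WT). K107R replaces a lysine that accepts the small protein SUMO. Mice of each genotype were gavaged over 1 week with the PPARg agonist rosiglitazone (10 mg/kg) in 1% methylcellulose or with that vehicle alone. Every group had first eaten chow (10 weeks) and then a diet giving 60% of calories as fat (19 weeks), so no lean animal serves as a baseline. The 8 groups of depot, genotype and treatment have 2 libraries each, with replicate number 1 or 2, and the labels give neither strain nor sex. Nor do they tell if a group's libraries are of separate animals or if the depots were paired within animals. The p-values therefore measure only the spread between these libraries, and that spread may be technical.

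Hox genes lie in 4 clusters, and their order along a cluster follows the order in which they are used from head to tail of the embryo, low paralogue numbers in front and high numbers behind. Cells keep much of this code into adult life, in fat depots as in the fibroblasts of different body sites. T-box, Irx, Gata and COUP-TF (Nr2f) factors pattern other parts of the mesoderm, and several of them are used as markers that tell subcutaneous from visceral fat. Both depots are whole tissue with many cell types, and fewer cells of a type cannot be told apart from less of an RNA per cell.

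Promoter windows of 4 genes on which the depot result turns are shown so that their sequence can be set beside their levels. They come from RefSeq (GRCm38.p6), run from 250 bases before to 50 bases after an annotated start, and are written 5′ to 3′ on the gene's strand, with CpG dinucleotides in capitals. Hoxa9 (chr6:52227321-52227620, minus strand), Hoxa10 (chr6:52234890-52235189, minus strand, the inner of its 2 windows) and Shox2 (chr3:66981722-66982021, minus strand) were low in eWAT. Nr2f1 (chr13:78198824-78199123, minus strand, one of its 2 windows) was high there.
Hoxa9: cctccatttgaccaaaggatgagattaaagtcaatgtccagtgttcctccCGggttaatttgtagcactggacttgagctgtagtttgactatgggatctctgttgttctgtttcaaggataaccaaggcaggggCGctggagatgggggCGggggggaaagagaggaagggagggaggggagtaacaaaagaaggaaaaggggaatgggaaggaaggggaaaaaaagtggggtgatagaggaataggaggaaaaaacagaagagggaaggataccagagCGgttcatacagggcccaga
Hoxa10: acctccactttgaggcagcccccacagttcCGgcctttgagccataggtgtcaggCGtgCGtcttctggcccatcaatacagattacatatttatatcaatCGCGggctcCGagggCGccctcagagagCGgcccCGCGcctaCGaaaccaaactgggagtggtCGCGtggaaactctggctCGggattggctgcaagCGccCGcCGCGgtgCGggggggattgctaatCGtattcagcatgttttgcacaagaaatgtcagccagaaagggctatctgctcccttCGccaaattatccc
Shox2: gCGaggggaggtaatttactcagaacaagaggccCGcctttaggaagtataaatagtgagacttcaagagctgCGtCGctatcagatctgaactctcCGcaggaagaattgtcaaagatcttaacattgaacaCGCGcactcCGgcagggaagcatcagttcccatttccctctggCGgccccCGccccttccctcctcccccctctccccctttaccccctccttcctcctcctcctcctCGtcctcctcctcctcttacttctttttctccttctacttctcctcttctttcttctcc
Nr2f1: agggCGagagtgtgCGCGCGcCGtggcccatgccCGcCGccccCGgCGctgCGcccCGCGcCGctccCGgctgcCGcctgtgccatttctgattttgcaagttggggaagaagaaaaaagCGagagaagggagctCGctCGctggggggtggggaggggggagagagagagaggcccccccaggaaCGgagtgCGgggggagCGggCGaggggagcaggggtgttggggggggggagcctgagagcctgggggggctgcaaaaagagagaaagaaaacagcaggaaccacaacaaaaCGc
The windows shown hold 4 CpG in Hoxa9, 21 in Hoxa10, 11 in Shox2 and 23 in Nr2f1. The windows not shown, at other annotated starts, hold 12 in Hoxa10 and 4 in Nr2f1, so the count of a gene depends on the start, and the files do not tell which start was used. RefSeq windows were at hand for 29 of the 48 genes, 33 windows in all, with a median of 15 CpG (quartiles 9 and 22), against 7 (quartiles 3 and 20) over all 32851 windows. The letters TATAAA, searched on both strands, were in the Hoxa10 and Shox2 windows and in 18.2% of the 33 windows, against 13.6% of all windows. The Hox-type letters TTTATNG were in 15.2% of the 33 windows, against 10.9% of all windows. The letters TGACAG, as bound by Meis proteins, were in 18.2%, against 19.2% of all windows. The letters AGATAA, as bound by GATA factors, were in 0 of the 33, against 11.2% of all windows.

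The depots differed most in Hoxa9, Hoxa10 and Hoxc10, genes towards the tail end of their clusters, and in the limb factors Shox2 and Tbx15, all low in eWAT. Over all conditions 13 of the 48 genes passed the test between eWAT and iWAT, 4 higher in eWAT (Nr2f1, Gata6, Meis1 and Hoxd3) and 9 lower (Hoxc10, Shox2, Hoxa9, Hoxa10, Tbx15, Tbx21, Tbx1, Irx2 and Irx1). The test was limma on log2(FPKM + 1) with Benjamini-Hochberg adjustment over the 13669 genes tested, and a gene passed at an adjusted p under 0.05. Of all genes tested 32.4% passed, 19.9% as higher and 12.5% as lower in eWAT, so a share of 13 in 48 is near or under the background of this comparison. With the replicate number as a block, which leaves the changes as they are and narrows their errors, 22 of the 48 passed (8 higher, 14 lower), against 55.8% of all genes. The median change was -0.03 over the 48 genes and 0.10 over all genes tested, on the log2(FPKM + 1) scale.

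Hoxc10, a paralogue 10 gene towards the rear of the Hoxc cluster (chr15:102966796-102971893), was nearly absent from eWAT. It had 0.0771, 0.167 and 0.413 FPKM in eWAT (lowest, median and highest of 8 libraries), against 3.86, 6.38 and 10.1 FPKM in iWAT. No eWAT library came near any iWAT library. The log2 change was -2.56 (SE 0.144, limma adjusted p = 4.04e-07), and the ratio of mean FPKM was 30.1 in favour of iWAT.

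Hoxa9 (chr6:52223100-52231089) and Hoxa10 (chr6:52231197-52240854), neighbours on the minus strand that pattern the trunk and limb, were also low in eWAT. Hoxa9 had 0.078, 0.161 and 0.595 FPKM in eWAT, against 2.13, 4.88 and 9.12 FPKM in iWAT. Hoxa10 had a median of 0.0838 and a highest value of 0.299 FPKM in eWAT, where 1 library was listed at 0, against 1.65, 3.76 and 8.34 FPKM in iWAT. Neither gene's depots overlapped. The log2 change was -2.23 for Hoxa9 (SE 0.187, limma adjusted p = 6.90e-06). It was -2.18 for Hoxa10 (SE 0.331, limma adjusted p = 0.00049). The annotated genes do not overlap each other, though Hoxa9 overlaps the miRNA gene Mir196b.

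Together these 3 genes made up between 0.165% and 0.993% of the summed FPKM of the 27 Hox genes in eWAT libraries, and between 13.3% and 16.2% in iWAT libraries. That summed level itself overlapped between depots, with 74.2, 89.7 and 137 FPKM in eWAT (lowest, median and highest) and 64.5, 110 and 169 FPKM in iWAT. Hoxc6 and Hoxc8, middle genes of their cluster, carried a median of 27.7% of it in eWAT and 29.9% in iWAT.

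Set along the clusters, the Hox genes past the test were the last of the Hoxa and Hoxc genes measured and Hoxd3. The 10 genes of paralogues 1 to 4 had a median log2 change of 0.21 and 1 passed the test, Hoxd3, higher in eWAT. Of the 11 genes of paralogues 5 to 8, with a median of -0.11, 0 passed, and with the replicate block 5 did, Hoxa5 and Hoxd8 higher and Hoxc5, Hoxc6 and Hoxc8 lower. The 6 genes of paralogues 9 and 10 had a median of -1.26, from -2.56 to -0.00, and 3 passed, with and without the block. Those 3 (Hoxa9, Hoxa10 and Hoxc10) reached 1 FPKM in 0 eWAT and 8 iWAT libraries, so the filter admitted them through iWAT. Their count and this median are therefore no test of a trend along the clusters. Of all genes tested 32.4% passed, and 55.8% with the block. Paralogue 9 was not a unit, since Hoxb9, Hoxc9 and Hoxd9 had log2 changes of -0.07, -0.34 and -0.00 and did not pass. Hoxc9 had 0.347, 1.71 and 2.27 FPKM in eWAT, against 0.272, 2.36 and 5.49 FPKM in iWAT.

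**Figure D1:**
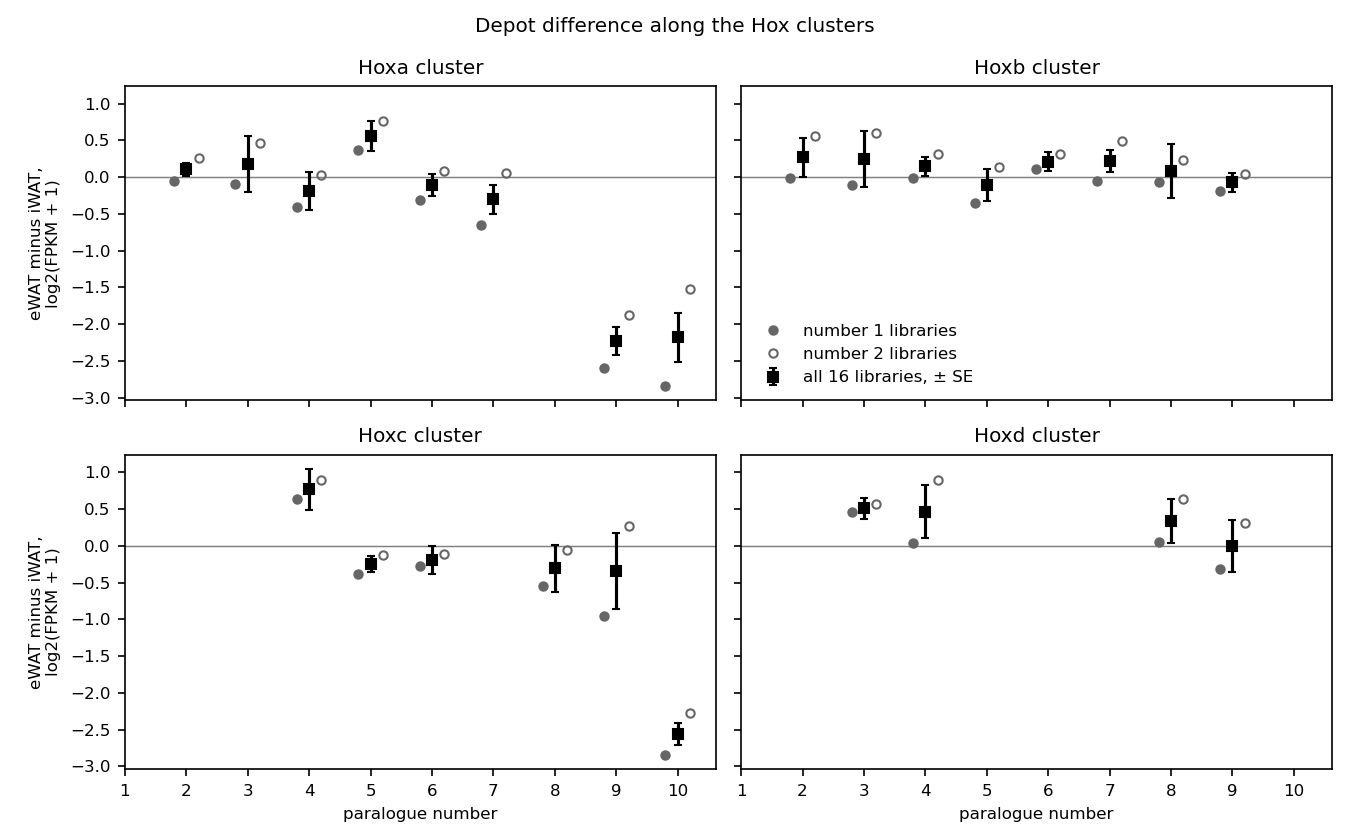
Change of Hox genes between eWAT and iWAT (eWAT minus iWAT, log2(FPKM + 1)) against its paralogue number, 1 panel per cluster. Squares are the fit over 16 libraries with its SE, filled and open circles the mean difference within replicate number 1 and number 2 libraries. Hoxa9, Hoxa10 and Hoxc10 lie at -2.23, -2.18 and -2.56, and the other genes shown lie between -0.34 and 0.77.

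At the front of the clusters, Hoxd3 (chr2:74711927-74748442), a gene of the hindbrain and neck region, passed with a log2 change of 0.51 (SE 0.143, limma adjusted p = 0.0191). It had 0.472, 1.11 and 3.51 FPKM in eWAT, against 0.282, 0.506 and 1.05 FPKM in iWAT, so the depots overlapped. Its 2 highest values, 3.51 and 1.82 FPKM, belonged to eWAT K107R vehicle. Without those libraries, over the other conditions, the change was 0.28 and did not pass (limma adjusted p = 0.21), though with the block it did (adjusted p = 0.0158). Leaving out the first WT vehicle library of eWAT also ended the call (adjusted p = 0.0509).

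Hoxc4 and Hoxa5 had log2 changes of 0.77 and 0.56 that passed only with the replicate number as a block (limma adjusted p = 0.00031 and 0.00124), as against 0.0588 and 0.061 without it. Hoxc4 had 1.82, 3.86 and 6.5 FPKM in eWAT, against 0.972, 1.84 and 3.61 FPKM in iWAT. Hoxa5, a regulator of trunk and lung patterning, had 2.02, 3.68 and 4.58 FPKM in eWAT, against 1.19, 2.13 and 3.48 FPKM in iWAT. Hoxc4 did not overlap between depots within replicate number 1 or within number 2. Hoxa5 did not within number 2. Neighbours Hoxd4 and Hoxd8 had log2 changes of 0.47 and 0.34 and likewise passed with the block alone (limma adjusted p = 0.0475 and 0.0383). Their changes were 0.04 and 0.05 within number 1, against 0.89 and 0.63 within number 2. The annotated Hoxd4 overlaps Hoxd3 on the same strand.

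The abundant middle gene Hoxc6 had 9.42, 12.7 and 17.8 FPKM in eWAT, against 9.29, 15.1 and 24 FPKM in iWAT. Hoxc8 had 6.81, 12.9 and 20.2 FPKM in eWAT, against 8.18, 17.2 and 29.8 FPKM in iWAT. Both overlapped widely, and their log2 changes of -0.19 and -0.31 passed only with the block (limma adjusted p = 0.0229 and 0.0379), as did Hoxc5 at -0.25 (adjusted p = 0.0329). Over all conditions 0 of the 8 Hoxb genes passed, with or without the block. In K107R vehicle, whose eWAT libraries hold epididymal RNA (described below), Hoxb6 was higher in eWAT by 1.32 (limma adjusted p = 0.00705), and with the block Hoxb7 and Hoxb8 were higher too. Their levels ran from 0.315 FPKM (Hoxb9) to 17 FPKM (Hoxb6) in eWAT, and from 0.352 FPKM (Hoxb9) to 7.85 FPKM (Hoxb6) in iWAT.

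Reads can be shared among these genes. Of the 48, 30 overlap another annotated gene, 15 of them on the same strand, 23 on the opposite strand and 11 with another member. Hoxa3 spans Hoxa4 to Hoxa6, and Hoxc5 spans Hoxc6, Hoxc8 and Hoxc9 and overlaps Hoxc10. The library kit keeps the strand, but the strand setting of the counting is not given in the sources used here. The values of such genes are therefore uncertain as assignments to 1 gene, and antisense partners cannot be set apart.

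Among the other homeobox and T-box factors, Shox2 and Tbx15 stood out as low in eWAT. Shox2 (chr3:66971727-66981771), a homeobox factor of the proximal limb, had 0.152, 0.32 and 0.478 FPKM in eWAT, against 2.3, 6.05 and 13.6 FPKM in iWAT. Tbx15 (chr3:99240381-99354259), a T-box factor needed for the limb and shoulder skeleton and used as a subcutaneous fat marker, had 0.00678, 0.0352 and 0.0682 FPKM in eWAT, against 1.5, 2.82 and 5.16 FPKM in iWAT. Neither overlapped, and within iWAT both were high in number 1 libraries and low in number 2. The log2 change of Shox2 was -2.36 (SE 0.365, limma adjusted p = 0.000555). That of Tbx15 was -1.89 (SE 0.252, limma adjusted p = 0.000196), with a ratio of mean FPKM of 88.5 in favour of iWAT. Tbx5, the forelimb T-box factor that was too low to test, had 0.00364, 0.00644 and 0.0137 FPKM in eWAT, against 0.122, 0.347 and 1.21 FPKM in iWAT.

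Tbx1, a T-box factor of the pharyngeal region, had 0.0296, 0.302 and 0.785 FPKM in eWAT, against 0.953, 1.59 and 2.23 FPKM in iWAT, without overlap. The log2 change was -0.91 (SE 0.073, limma adjusted p = 4.95e-06). En1, a homeobox factor of the midbrain and ventral limb, had 0.08, 0.123 and 0.326 FPKM in eWAT, against 0.2, 0.632 and 1.92 FPKM in iWAT. Its change of -0.62 passed only with the block (limma adjusted p = 0.00747, as against 0.08 without it).

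Tbx21 (T-bet), a T-box factor of T and NK cells, had 0.318, 0.672 and 0.919 FPKM in eWAT, against 1.39, 2.25 and 3.68 FPKM in iWAT. The depots did not overlap, and the log2 change was -1.01 (SE 0.0869, limma adjusted p = 8.20e-06). The 11 T and NK cell markers, all measured, summed to between 11.1 and 35.1 FPKM in eWAT and between 23.4 and 146 FPKM in iWAT, and 9 of them fell in eWAT. The part of these cells in the Tbx21 difference was not tested.

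The Irx2 and Irx1 genes, neighbouring homeobox factors of the Iroquois family, passed as lower in eWAT. Irx2 had 0.0263, 0.0533 and 0.394 FPKM in eWAT, against 0.549, 0.801 and 1.58 FPKM in iWAT, and did not overlap. Its log2 change was -0.73 (SE 0.0976, limma adjusted p = 0.000199). Irx1 had at most 0.0576 FPKM in 6 eWAT libraries, 1 of them listed at 0, while eWAT K107R vehicle had 2.95 and 3.33 FPKM, above the 0.661, 0.835 and 1.58 FPKM of iWAT. Its averaged change of -0.43 (SE 0.0957, limma adjusted p = 0.00605) thus joined 3 conditions with lower values in eWAT to 1 with higher values. Without the eWAT K107R vehicle libraries the change of Irx1, over the other 3 conditions, was -0.88 (adjusted p = 0.000356 by limma). In that fit 12 of the 48 genes passed between depots, against 27.5% of all genes tested. Irx3, the third Iroquois gene here, had 1.82, 3.58 and 4.62 FPKM in eWAT, against 0.779, 3.05 and 5.75 FPKM in iWAT, and did not pass.

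**Figure D2:**
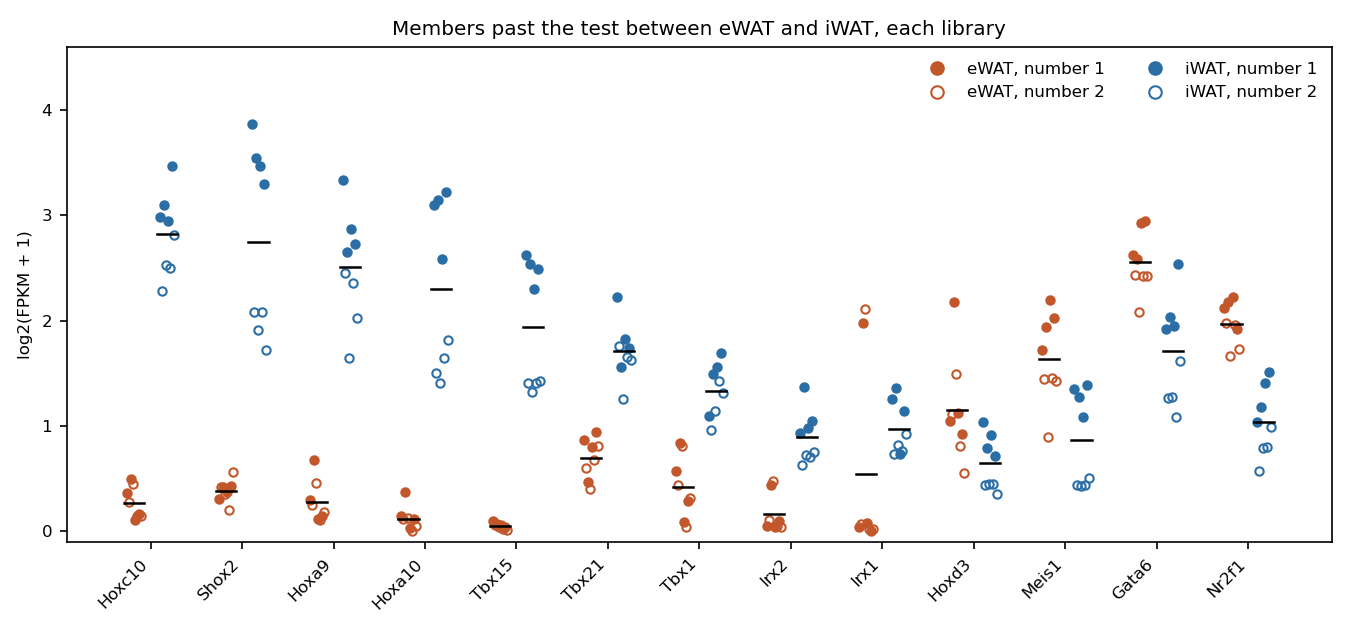
The 13 genes that passed the test between eWAT and iWAT, as log2(FPKM + 1) in each library, with eWAT left of iWAT for each gene, filled circles for replicate number 1, open circles for number 2 and bars at the mean of 8 libraries. Only Irx1, Hoxd3, Meis1 and Gata6 overlap between depots, and the Irx1 values above 1.9 in eWAT are the K107R vehicle libraries.

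Nr2f1, Gata6 and Meis1 were higher in eWAT. Nr2f1 (COUP-TFI, chr13:78188973-78199757), an orphan nuclear receptor, had 2.18, 2.91 and 3.68 FPKM in eWAT, against 0.486, 1.02 and 1.85 FPKM in iWAT. It alone of the 48 genes was higher in eWAT with no overlap of libraries. Its log2 change was 0.94 (SE 0.141, limma adjusted p = 0.000473). Its relative Nr2f2 (COUP-TFII) had 1.31, 4.11 and 5.94 FPKM in eWAT, against 0.93, 3.93 and 7.2 FPKM in iWAT, and its change of 0.18 did not pass.

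Gata6, a zinc finger factor of visceral mesoderm and endoderm that mesothelium and peritoneal macrophages also express, had 3.24, 4.71 and 6.73 FPKM in eWAT, against 1.12, 2.43 and 4.8 FPKM in iWAT. The depots overlapped over all libraries but not within replicate number 1 or within number 2. The log2 change was 0.85 (SE 0.215, limma adjusted p = 0.0119). Gata2, a factor of blood and fat precursors, and Gata3, a factor of T cells and precursors, did not pass, with changes of 0.11 and -0.02. Most mesothelium and macrophage markers were also higher in eWAT, with counts and sums given below, and their part in the Gata6 difference was not tested.

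Meis1, a homeobox partner of Hox proteins (chr11:18879817-19018985), had 0.863, 2.02 and 3.58 FPKM in eWAT, against 0.345, 0.767 and 1.62 FPKM in iWAT. It overlapped over all libraries but not within either replicate number. The log2 change of 0.77 (SE 0.251) had a limma adjusted p of 0.0381 and, with the replicate block, of 1.81e-05. Without the block the call was lost when any 1 of 9 libraries was left out (adjusted p up to 0.0924), namely both of eWAT K107R rosiglitazone, number 1 of the other 3 eWAT groups and number 2 of the 4 iWAT groups. Its relative Meis2, with a change of 0.24, did not pass.

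The remaining T-box genes and Six5 did not pass between depots over all conditions, with or without the block. Six5 passed in WT vehicle with the block (-0.47, limma adjusted p = 0.0309, and 0.146 without it). Tbx2 and Tbx3, repressors of cell cycle inhibitors, had medians of 4.18 and 1.82 FPKM in eWAT, against 4.22 and 2.63 FPKM in iWAT. Tbx18, of the body wall and heart lining, had medians of 1.68 FPKM in eWAT and 1.42 FPKM in iWAT. Tbx6, of the early somites, had medians of 1.29 FPKM in eWAT and 1.68 FPKM in iWAT. Six5 had medians of 6.42 FPKM in eWAT and 7.51 FPKM in iWAT.

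Counted by libraries alone, 1 of the 48 genes lay above and 8 below every iWAT library in all 8 eWAT libraries, against 8.24% and 2.59% of all genes tested. The 8 were Hoxa9, Hoxa10, Hoxc10, Shox2, Tbx15, Tbx1, Tbx21 and Irx2. Since all 8 had under 1 FPKM in every eWAT library, the filter admitted them through iWAT and their count is no measure of how common such genes are.

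The libraries of replicate number 2 had lower levels of most of these genes, above all in iWAT. In the 4 iWAT groups, 46 or 47 of the 48 genes were higher in number 1, with median differences of 0.69 to 0.89 on the log2(FPKM + 1) scale, while between 72.4% and 82.4% of all genes tested were higher. In the 4 eWAT groups the median differences were 0.07 to 0.48. Tbx15 had 3.95 to 5.16 FPKM in iWAT number 1 libraries and 1.5 to 1.69 FPKM in number 2 libraries. En1 had 0.94 to 1.92 and 0.2 to 0.325 FPKM there. The meaning of the number is not given in the labels.

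Within replicate number 1 the depot difference had a median of -0.21 over the 48 genes, and within number 2 of 0.22. Only 27 of the 48 (56.3%) kept the same sign in both, against 70.0% of all genes tested. Within number 1 the 4 libraries of each depot did not overlap for 4 genes higher and 14 lower in eWAT (17.8% and 16.7% of all genes). Within number 2 they did not for 13 higher and 9 lower (25.9% and 5.18%). The 13 genes past the test kept their sign in both, but they were called on the mean of these 2 differences, so this is no separate support. Hoxc9 was at -0.95 in number 1 and 0.26 in number 2, Nr2f2 at -0.24 and 0.59, and Tbx3 at -0.39 and 0.40.

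**Figure D3:**
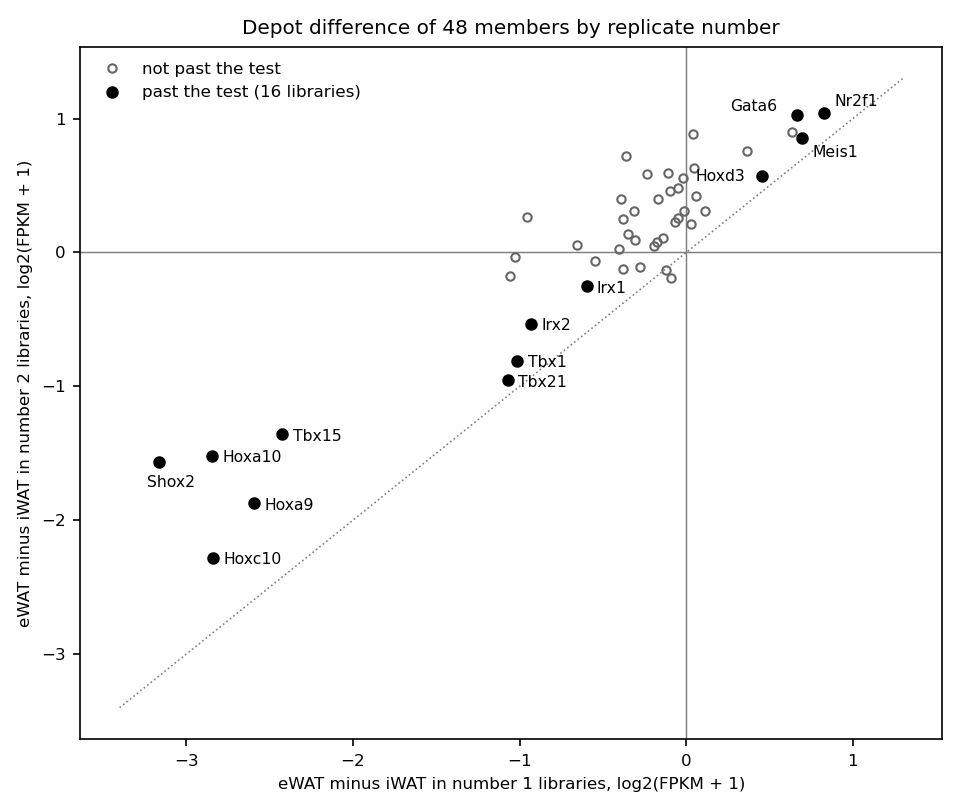
Depot difference of the 48 genes (eWAT minus iWAT, log2(FPKM + 1)) within replicate number 1 libraries (horizontal) and within number 2 libraries (vertical), with filled points for the 13 genes past the test and a dotted line of equal values. Shox2 lies at -3.16 and -1.56 and Nr2f1 at 0.83 and 1.05, and most open points lie above the dotted line.

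Of the 48 genes 9 passed in K107R rosiglitazone (10.9% of all genes tested), 8 in K107R vehicle (14%), 9 in WT rosiglitazone (15.3%) and 8 in WT vehicle (11.4%). With the replicate block these were 13, 16, 14 and 15 (26.5%, 29.3%, 31.8% and 25.3% of all genes). Without the block, leaving out an eWAT library of the condition itself lowered the count in all 4 conditions. So did leaving out number 1 of the iWAT libraries in K107R rosiglitazone, WT rosiglitazone and WT vehicle. Such a fit has 1 library in that group, so its lower count is not read as a trait of these genes. Hoxa9, Hoxc10, Tbx1, Tbx15, Tbx21 and Irx1 passed in all 4 conditions, Irx1 with the opposite sign in K107R vehicle, where the eWAT libraries hold epididymal RNA whose part was not tested. Hoxa10 (-2.44 to -2.03) passed in 1 of the 4 conditions and Shox2 (-2.61 to -2.01) in 2, and both passed in all 4 with the block. The log2 change of Hoxc10 ran from -2.99 to -2.31, that of Tbx15 from -1.94 to -1.81 and that of Hoxa9 from -2.62 to -1.59. Nr2f1 (0.57 to 1.24), Gata6 (0.61 to 1.15) and Meis1 (0.57 to 1.06) were above 0 in all 4 and, with the block, passed in all 4. Of the 48 genes 14 were below 0 in all 4 conditions, 14 above 0 and 20 mixed. Shares over all genes were not taken for the counts that join all 4 conditions. Those counts therefore do not tell if the depot differences of these genes are steadier than those of other genes.

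Other genes of the same networks were read beside these. Of 7 further Hox partner genes 6 were tested, and 2 rose in eWAT, 0 fell (median change 0.43, against 0.10 over all genes). With the block 5 rose. Beside this list and those that follow stand the shares over all genes given above, 19.9% higher and 12.5% lower in eWAT, and 55.8% in either direction with the block. Meis3 had 13.1, 14.7 and 19.2 FPKM in eWAT, against 7.85, 8.86 and 10.8 FPKM in iWAT (log2 change 0.69, SE 0.108, limma adjusted p = 0.000574). Pknox2 had a change of 0.40 (limma adjusted p = 0.0126). Of 23 Polycomb and Trithorax genes, which hold Hox clusters silent or active, 0 rose and 3 fell in eWAT (median change 0.05), and with the block 2 rose and 7 fell. The 3 were Cbx7 (-0.78), Cbx8 (-0.29) and Ezh1 (-0.23). Cbx7, a Polycomb subunit that reads methylated histone H3, had 7.22, 7.98 and 9.72 FPKM in eWAT, against 8.98, 15.4 and 19.5 FPKM in iWAT.

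Of 30 other mesodermal factors 16 were tested, 5 rose and 2 fell in eWAT (median change 0.31), and with the block 9 rose and 3 fell. Wt1, a factor of mesothelium and visceral fat precursors, had 4.38, 6.1 and 8.65 FPKM in eWAT, against at most 0.0316 FPKM in iWAT. Tcf21, a visceral mesoderm factor, had 3.85, 5.04 and 7.48 FPKM in eWAT, against at most 0.0268 FPKM in iWAT. Their log2 changes were 2.81 and 2.62 (limma adjusted p = 1.32e-08 and 9.52e-10), and no member had so large a rise. Prrx2 (1.17) also rose, and Lhx8, a LIM homeobox factor, fell by 1.74 on the log2 scale, with 0.00557, 0.0335 and 0.0744 FPKM in eWAT, against 0.718, 2.37 and 8.55 FPKM in iWAT.

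Marker lists of cell types checked the depot labels. Depth is unknown because the files give no counts. Summed FPKM ranged from 411746 to 596519 over the libraries. Of the mesothelium markers 9 of 10 were tested, 7 rose and 1 fell in eWAT, with sums of 99.8 to 148 FPKM in eWAT and 52.2 to 81.9 FPKM in iWAT. The marker that fell, Cldn15, made up most of the iWAT sum. Its means in number 1 and number 2 libraries were 58.8 and 57 FPKM in iWAT, against 42.4 and 39.7 FPKM in eWAT. Upk3b, which rose most, had means of 0.0336 and 0.0194 FPKM in iWAT, against 23.6 and 23.3 FPKM in eWAT. Macrophage markers (8 of 9 rose) summed to 3496 to 4729 FPKM in eWAT and 910 to 1378 FPKM in iWAT. Of 10 fat cell markers 6 fell in eWAT, of 12 progenitor markers 6 rose and 2 fell, of 9 mast cell markers 7 rose, of 11 endothelial markers 7 fell, and of 9 B cell markers 8 fell. Of the muscle markers, 7 of 9 skeletal and 3 of 8 smooth muscle ones fell, and 1 smooth muscle marker rose. The part of the cell mix in the depot differences above was not tested.

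The 2 eWAT K107R vehicle libraries stood apart by RNA of the epididymis, the duct that this fat adjoins. The 7 measured epididymis markers summed to 3452 and 3263 FPKM there, against 0.00570 to 5.79 FPKM in the other 6 eWAT libraries and at most 0.204 FPKM in iWAT. Epithelial markers summed to 124 and 132 FPKM there, against 8.22 to 16.5 FPKM in the other eWAT libraries and 0.939 to 2.81 FPKM in iWAT. Several of the genes below were highest in these libraries.

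In eWAT of K107R mice, rosiglitazone gave 3 genes past the test, all lower than in vehicle (4.89% of all genes tested passed, 3.61% as lower), and with the replicate block 7 (10.9%). Irx1 had 0.0315 and 0.0501 FPKM with rosiglitazone, against 2.95 and 3.33 FPKM with vehicle (log2 change -1.99, SE 0.191, limma adjusted p = 7.21e-05). Hoxb6 had 6.25 and 4.37 FPKM with rosiglitazone, against 15.1 and 17 FPKM with vehicle (-1.45, SE 0.27, adjusted p = 0.00859). Hoxb7 had 2.83 and 3.84 FPKM with rosiglitazone, against 10.5 and 8.59 FPKM with vehicle (-1.29, SE 0.31, adjusted p = 0.042). For none of the 3 did the groups overlap. These genes were called on the same values, 2 libraries a group, so this is no separate support. The share of all genes without overlap is not given here. Leaving out 1 library ended the Hoxb7 call in 9 of 16 cases (adjusted p up to 0.316). It ended the Hoxb6 call in 2, without the second rosiglitazone or the second vehicle library of this comparison (adjusted p up to 0.102). The vehicle libraries are those with the epididymal RNA, whose part in these falls was not tested. With the block Hoxb9, Hoxd3 and Tbx2 also fell, by 0.63, 0.76 and 0.90 on the log2 scale, and Hoxa4 rose by 0.79.

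In vehicle eWAT, 2 of the 48 genes were higher in K107R than in WT (3.35% of all genes tested passed, 2.89% as higher), and with the block 7 changed (8.3%), 6 higher and Tbx21 lower. Irx1 had 2.95 and 3.33 FPKM in K107R, against 0 and 0.0176 FPKM in WT (log2 change 2.03, SE 0.19, limma adjusted p = 6.67e-05). Hoxb6 had 15.1 and 17 FPKM in K107R, against 7.35 and 6.04 FPKM in WT (1.15, SE 0.27, adjusted p = 0.0468). With the block Hoxb8, Hoxd3, Hoxb9 and Tbx1 rose too (1.29, 1.09, 0.53 and 0.52), and Tbx21 fell by 0.44 on the log2 scale. All 7 measured epididymis markers and 8 of 9 epithelial markers were also higher in K107R in this comparison. Markers of T and NK cells fell there in 6 of 11 cases, in 9 with the block, with sums of 13.3 and 11.1 FPKM in K107R and 35.1 and 29.9 FPKM in WT. The part of these cells and of the epididymal RNA in the changes of this paragraph was not tested. Leaving out 1 library ended the Hoxb6 call in 12 of 16 cases (adjusted p up to 0.355). Both comparisons use the same 2 K107R vehicle libraries, so they are not independent.

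**Figure D4:**
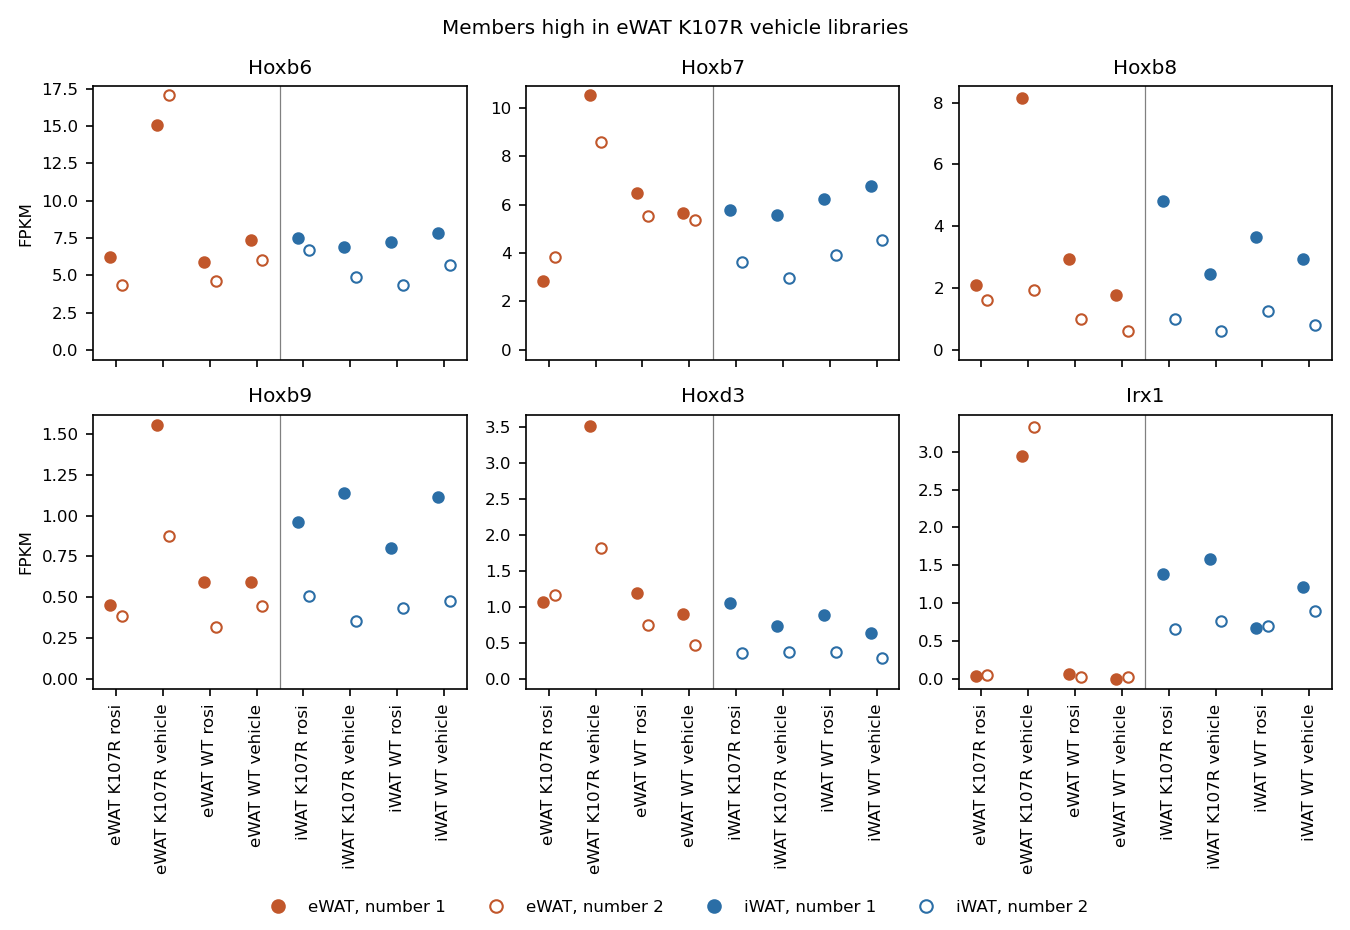
FPKM of 6 genes in each library by group, eWAT left and iWAT right of the line, filled circles for replicate number 1 and open for number 2. The eWAT K107R vehicle libraries are the highest eWAT libraries for Hoxb6 (15.1 and 17), Hoxb7 (10.5 and 8.59), Hoxd3 (3.51 and 1.82) and Irx1 (2.95 and 3.33), while in Hoxb8 1 of them (1.94) lies among the others.

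In the drug and genotype comparisons outside that group few of the 48 genes passed. Without the block at most 4.21% of all genes tested did so there. These counts therefore do not tell if the 48 genes are steadier than other genes. Rosiglitazone in WT eWAT gave 0 genes past limma's test, 0 at an unadjusted p under 0.05 and 0 with the block (0.446% of all genes tested passed, and 2.47% with the block). In K107R iWAT it gave 0, 2 at an unadjusted p under 0.05 and 1 with the block (4.21% of all genes, and 12.4% with the block). That gene was Tbx21, with 3.68 and 2.38 FPKM with rosiglitazone, against 1.96 and 1.39 FPKM with vehicle (log2 change 0.58, limma adjusted p = 0.00572 with the block and 0.12 without). The T and NK cell markers summed to 28.6 and 23.4 FPKM in those rosiglitazone libraries and to 74.3 and 56.2 FPKM in the vehicle libraries. The part of these cells in the Tbx21 change was not tested.

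In WT iWAT, rosiglitazone gave 0 genes past limma's test, 3 at an unadjusted p under 0.05 and 3 with the block, all lower (1.68% of all genes passed without the block, and 6.98% with it, 2.96% as lower). Hoxc6 had 14.3 and 9.38 FPKM with rosiglitazone, against 24 and 16.7 FPKM with vehicle (log2 change -0.74, block adjusted p = 0.0064 by limma). Hoxc5 had 3.25 and 3.2 FPKM with rosiglitazone, against 6.73 and 5.74 FPKM with vehicle (-0.77, block adjusted p = 0.029). Hoxa6 had 1.43 and 0.568 FPKM with rosiglitazone, against 2.97 and 1.85 FPKM with vehicle (-0.79, block adjusted p = 0.0461). None of the 3 overlapped between groups of 2 libraries. That is no separate support, since they were called on these values, and the share over all genes is not given here. The annotated Hoxc5 and Hoxc6 overlap each other. Of 12 progenitor markers 1 fell in the same comparison and 3 with the block, with sums of 1371 and 1156 FPKM with rosiglitazone and 2007 and 1476 FPKM with vehicle. Of 11 endothelial markers 1 fell and 3 with the block, with sums of 612 and 645 FPKM with rosiglitazone and 862 and 762 FPKM with vehicle. Their part in the Hox falls was not tested.

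By limma, K107R against WT gave 0 of the 48 genes with rosiglitazone in eWAT (0.907% of all genes passed), 2 at an unadjusted p under 0.05 and 0 with the block (3.47%). In rosiglitazone iWAT limma gave 0 (4.13% of all genes), 1 at an unadjusted p under 0.05 and 1 with the block (9.36%). In vehicle iWAT limma gave 0 (0.578% of all genes), 1 at an unadjusted p under 0.05 and 0 with the block (2.12%). The 1 gene was Tbx1, with 1.13 and 0.953 FPKM in K107R, against 1.95 and 1.69 FPKM in WT (log2 change -0.46, limma adjusted p = 0.0238 with the block and 0.163 without). In that comparison 8 of 11 T and NK cell markers and 8 of 9 B cell markers were lower and 5 of 9 skeletal muscle markers higher in K107R, and their part in the Tbx1 change was not tested.

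Tested as a difference between depots, 2 of the 48 genes had a K107R change that differed between eWAT and iWAT, Tbx1 and Irx1 (3.45% of all genes tested, and 6.45% with the block), with and without the block. In eWAT Tbx1 had 0.484 and 0.357 FPKM in K107R with rosiglitazone, against 0.0615 and 0.0296 FPKM in WT. With vehicle it had 0.785 and 0.751 FPKM in K107R, against 0.224 and 0.247 FPKM in WT. In iWAT the order was the other way with rosiglitazone, as given above. With vehicle the iWAT groups overlapped, with 1.82 and 1.21 FPKM in K107R, against 2.23 and 1.48 FPKM in WT. Taken singly, none of these K107R changes passed without the block. With it only those in vehicle eWAT and rosiglitazone iWAT did. The depot difference of the change, averaged over treatments, was 0.80 (SE 0.146, limma adjusted p = 0.0118). Without the eWAT K107R vehicle libraries only the rosiglitazone groups enter, and the difference was 0.91 (limma adjusted p = 0.11, and 0.014 with the block). Between the rosiglitazone groups alone, the depot difference of Irx1 was -0.24. Averaged over treatments it was 0.87 (SE 0.191, limma adjusted p = 0.0364), which rests on the eWAT K107R vehicle libraries. It was lost in 14 of 16 fits that left out 1 library (adjusted p up to 0.103).

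The rosiglitazone change differed between depots for 0 of the 48 genes by limma (2.21% of all genes tested), for 3 at an unadjusted p under 0.05 and for 2 with the block (3.83% of all genes), Hoxb6 and Irx1 (-0.89 and -0.78, block adjusted p = 0.0141 and 0.0323). These values average over genotypes. Without the eWAT K107R vehicle libraries only WT enters, and the differences were -0.09 for Hoxb6 and 0.33 for Irx1.

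**Figure D5:**
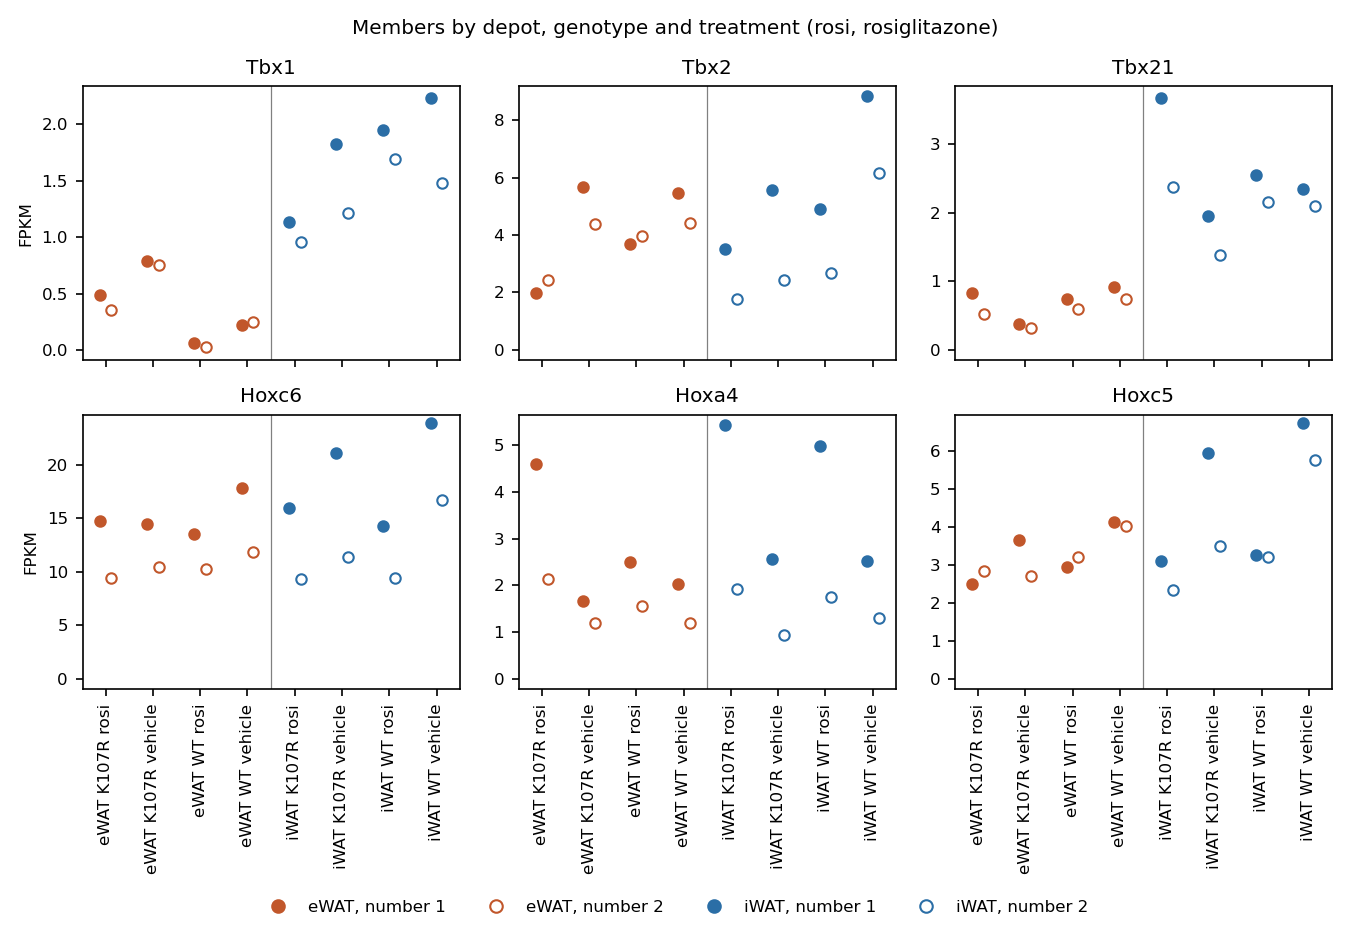
FPKM of 6 genes in each library by group, eWAT left and iWAT right of the line, filled circles for replicate number 1 and open for number 2. Tbx1 in K107R eWAT (0.357 to 0.785) lies above WT eWAT (0.0296 to 0.247), and Hoxc5 in WT iWAT has 3.25 and 3.2 with rosiglitazone, against 6.73 and 5.74 with vehicle.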

How the data were processed

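RNA-seq of 16 libraries was analysed. Per the labels' protocols, a stranded mRNA kit was used on 4 ug of total RNA and reads were single-ended, 75 nt long. The authors deposited FPKM values for 14023 genes, which were used as deposited. The submitters' processing notes name the mm10 build with Cufflinks 2.2.1, TopHat2 2.0.12 and CASAVA 1.8.2, while annotation, strand setting and scaling are not given in the sources used here. Values of the 13669 genes reaching 1 FPKM in 2 or more libraries were taken as log2(FPKM + 1), a scale on which low genes change less. A limma fit (version 3.58.1, R 4.3.3) with a mean-variance trend took 1 mean for each group, using every library, for 15 contrasts with two-sided p-values adjusted by the Benjamini-Hochberg method within each. The fit was checked on simulated data. Apart from Cldn15, genes named outside the 48 are the called members of each list with the largest change, at most 4. The members, lists and tests were chosen with earlier results of these data known.

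The alternatives were median-ratio scaling, a pseudocount of 0.1, no filter, no trend, the depot's libraries alone, the replicate number as a block, leaving out each library and leaving out the eWAT K107R vehicle libraries. The last with the block was chosen after seeing the data. Without the eWAT K107R vehicle libraries, the depot comparison over all conditions leaves out K107R vehicle in both depots. The depot difference of the K107R change is then of rosiglitazone alone, and that of the rosiglitazone change of WT alone. Libraries with the same replicate number deviated together from their group means in 28 of 28 pairs of groups (r from 0.121 to 0.791, median 0.573, over all genes tested). These pairs share groups and are not independent, and they do not tell if the number pairs animals. The block takes 1 shift per gene for all groups. The median shift of the 48 genes was 0.69 to 0.89 in iWAT groups and 0.07 to 0.48 in eWAT groups, a limit on calls made with the block alone. Coordinates are from GENCODE M21 (GRCm38, the assembly of mm10), which matched all 48 genes. The 48 include 2 genes whose own values are not reported here.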

Additional observations from a re-analysis of the deposited data

Results flagged for a closer look

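The change between K107R and WT differed between the depots for 2 genes, by a test of the difference itself (limma). For Tbx1 the difference, averaged over treatments, was 0.802 on the log2(FPKM + 1) scale. Its K107R change was above 0 in eWAT (0.44 with rosiglitazone and 0.52 with vehicle) and below 0 in iWAT (-0.46 and -0.18). Taken singly, none of these changes passed without the block. With it only those in vehicle eWAT and rosiglitazone iWAT did. For Irx1 the depot difference was 0.868, and this rests on the 2 eWAT K107R vehicle libraries with epididymal RNA, where Irx1 had 2.95 and 3.33 FPKM. The part of that RNA was not tested. Groups of 2 libraries are too small to look for a single library far from the others.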

How the results depend on the processing

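Of the 48 genes 13 passed in the depot comparison over all conditions, and between 11 and 15 did so when 1 library was left out. In the single conditions these ranges were 3 to 10 (K107R rosiglitazone), 4 to 9 (K107R vehicle), 4 to 10 (WT rosiglitazone) and 3 to 8 (WT vehicle). They were 1 to 3 for rosiglitazone in K107R eWAT, 1 to 2 for K107R in vehicle eWAT, 0 to 1 for the depot difference of the rosiglitazone change and 1 to 2 for that of the K107R change.

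For the fits above that left out 1 library, the share of all genes passing was not taken. Those ranges therefore do not tell if the calls of these genes are less stable than those of other genes. With the replicate number as a block, the depot comparisons called 22 genes over all conditions, 16 in K107R vehicle, 14 in WT rosiglitazone and 15 in WT vehicle. Rosiglitazone called 7 in K107R eWAT, 1 in K107R iWAT and 3 in WT iWAT, K107R called 7 in vehicle eWAT and 1 in rosiglitazone iWAT. The drug change differed between depots for 2. Median-ratio scaling moved the median change of all genes between depots to -0.012, against 0.10, and called 14 genes in the K107R vehicle depot comparison (18.4% of all genes). Rosiglitazone then called 8 in K107R eWAT (5.41%), 2 in K107R iWAT (5.05%) and 4 in WT iWAT (2.3%), K107R called 1 in rosiglitazone eWAT (1.12%), 7 in vehicle eWAT (4.29%) and 1 in rosiglitazone iWAT (4.88%), and the drug change differed between depots for 2 (2.22%). A pseudocount of 0.1 called 1 gene for K107R in rosiglitazone eWAT (0.819%) and 1 for the depot difference of the rosiglitazone change (1.87%), and without the trend 1 was called for the depot difference of the K107R change (3.24%). Without the eWAT K107R vehicle libraries 5 genes were called in the K107R rosiglitazone depot comparison (11%). For the depot difference of the K107R change, then of rosiglitazone alone, 0 were called (1.41%), and with the block 1 (3.29%). With the block and without those libraries the depot counts were 14 (WT rosiglitazone, 30.4%) and 15 (WT vehicle, 24.2%). Rosiglitazone then called 2 each in K107R iWAT (11.6%) and in WT iWAT (6.15%), and K107R called 1 in rosiglitazone iWAT (8.82%). The causes were not tested.

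Without the eWAT K107R vehicle libraries, with or without the block, the genes that changed sign between depots were Hoxa6 (0.049), Hoxb6 (-0.16), Hoxb7 (-0.053), Hoxb8 (-0.27) and Tbx3 (-0.14), with scaling Tbx3 (-0.052), and with the pseudocount of 0.1 Gata3 (0.11) and Hoxd9 (0.042). Without those libraries Irx1 was at 0.33 for the depot difference of the rosiglitazone change, which then used WT alone. It was at -0.24 for that of the K107R change, which then used rosiglitazone alone. With 1 library left out, Tbx3 ran from -0.22 to 0.23, Hoxd9 from -0.20 to 0.20, Gata2 from -0.077 to 0.31, Hoxb8 from -0.12 to 0.29, Nr2f2 from -0.069 to 0.42, Gata3 from -0.15 to 0.12, Tbx2 from -0.18 to 0.052, Hoxa3 from -0.010 to 0.37, Irx3 from -0.029 to 0.39, Hoxb5 from -0.23 to 0.018 and Hoxb9 from -0.15 to 0.011. Since the files hold FPKM without counts, no counting error can be given.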
